A study of Mus musculus with 20 samples.

Results

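The 9 carboxylesterase genes Ces1d, Ces1f, Ces1g, Ces2a, Ces2b, Ces2c, Ces2e, Ces2f and Ces2g were followed in the distal colon (DC) of 20 mice. They were chosen by their symbols among the 26619 genes of the count table. Ces2b was singled out by its lower level at 10% than at 0% resistant potato starch (RPS) in these same libraries, and the other 8 genes were added as its relatives. The difference between 10% and 0% RPS is therefore given below as a description, with no test, for all 9 genes. Another 10 genes of the family (Ces1a, Ces1b, Ces1c, Ces1e, Ces1h, Ces2h, Ces3a, Ces3b, Ces4a and Ces5a) have rows in the table, and 4 of them passed the filter on low counts. All 9 members passed that filter.

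C57BL/6 mice bred in-house were fed the Total Western Diet (TWD), a rodent diet that mimics the nutrient intake of the American population, for 6 weeks from weaning, which was at 3 weeks of age or shortly after. They then received the TWD alone (0% RPS) or the TWD with 2%, 5% or 10% RPS for 3 weeks, with 5 mice in each group. All mice, the 0% RPS controls included, thus carried the same Western diet, and no group without it was compared. Each library came from 1 mouse, from a section of the colon near the anal end, in which markers of epithelium, smooth muscle and fat were all detected.

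Total counts ran from 18.4 to 35 megacounts per library and were highest in the 0% RPS group. The description label and the treatment label of 3 mice named different RPS levels (mice RS10_717, RS10_725 and RS10_748), and the description label was used. Transcripts of 9 pancreatic marker genes summed to 5280 CPM (counts scaled to the size of the library) in mouse RS10_721 of the 5% RPS group and to 480 CPM in mouse RS10_784 of the 10% RPS group, against 6.75 to 18.6 CPM in the other 18 mice. The epithelial marker Epcam lay between 1440 and 1790 CPM in all 20 libraries, and the smooth muscle marker Myh11 between 1530 and 3930 CPM. In whole tissue, fewer cells of a type and less RNA per cell cannot be told apart.

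Carboxylesterases are serine hydrolases that reside mostly in the endoplasmic reticulum and split ester, thioester and amide bonds. The Ces1 and Ces2 subfamilies hydrolyse drugs and other foreign esters, and several members also act on triglycerides, diglycerides or cholesteryl esters. In people a single CES1 gene serves mainly the liver and a single CES2 gene mainly the intestine, whereas in the mouse both have expanded into clusters of closely related genes.

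All 9 genes lie on chromosome 8 of the GRCm39 assembly. Ces1d (93892693 to 93924466), Ces1f (93981999 to 94006375) and Ces1g (94028683 to 94063953) are on the minus strand. The Ces2 genes form a separate cluster on the plus strand, from Ces2a (105460630 to 105468266) through Ces2b (105558204 to 105566725), Ces2c (105573700 to 105581115), Ces2e (105652848 to 105661304) and Ces2f (105673988 to 105686679) to Ces2g (105688346 to 105696169). Ces2b and Ces2c are neighbours, and of all 36 pairs they had the most alike coding sequences, with 92.1% of aligned bases identical. The other pairs within Ces2 shared 79.8% to 86.6% of aligned bases, the pairs within Ces1 74.6% to 81.6%, and a Ces1 and a Ces2 gene 61.3% to 64.9%.

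The reads were 50 bases long, so a stretch of at least 50 identical bases yields reads that cannot be assigned to 1 gene. The canonical transcripts of Ces2b and Ces2c hold 6 such stretches, of 50 to 99 bases, all within coding exons. The 2 longest are printed here because they bear on every comparison of Ces2b with Ces2c. The bases that are identical in both genes are in capitals, with 25 coding bases on either side in lower case, 5′ to 3′ on the coding strand (GRCm39). The first lies in exon 7 of both genes and the second spans exons 8 and 9.
Ces2b, exon 7, chr8:105562848-105562977: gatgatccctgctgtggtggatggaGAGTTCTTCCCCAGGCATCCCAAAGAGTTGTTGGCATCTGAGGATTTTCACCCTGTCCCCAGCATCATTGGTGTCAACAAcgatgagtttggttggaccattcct
Ces2c, exon 7, chr8:105578653-105578782: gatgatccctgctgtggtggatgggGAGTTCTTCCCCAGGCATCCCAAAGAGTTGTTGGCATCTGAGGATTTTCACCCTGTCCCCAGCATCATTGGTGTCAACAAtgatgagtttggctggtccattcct
Ces2b, exons 8 and 9, chr8:105563165-105563524: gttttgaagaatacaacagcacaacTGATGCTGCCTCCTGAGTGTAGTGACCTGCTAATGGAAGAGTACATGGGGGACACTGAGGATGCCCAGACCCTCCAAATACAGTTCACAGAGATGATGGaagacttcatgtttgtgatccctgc
Ces2c, exons 8 and 9, chr8:105578969-105579334: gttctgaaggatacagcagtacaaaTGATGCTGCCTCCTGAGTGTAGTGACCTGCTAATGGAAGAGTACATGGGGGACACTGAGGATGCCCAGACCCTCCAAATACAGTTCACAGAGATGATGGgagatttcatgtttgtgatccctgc

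In all, 99 of the 3359 windows of 50 bases in the Ces2b transcript, or 2.95%, were also in Ces2c. The same 99 windows made up 5.15% of the 1921 windows of Ces2c. Ces2c was counted at 244 CPM on average over 20 mice and Ces2b at 6.13 CPM, so at even coverage 12.6 CPM of Ces2c reads would fall in the shared windows, more than the whole count of Ces2b. How reads with several matches were shared out is not given in the sources used here, and the part of such reads in the Ces2b counts was not tested. Summed over the other members this value was 14.3 CPM for Ces2b and 1.89 CPM for Ces2f, which was itself counted at 1.37 CPM, whereas for the other 7 members it lay below their own level. Over all their transcripts in the GENCODE annotation, 56.9% of the windows of Ces2c and 12.1% of those of Ces2a were shared with some other gene, most of them with Gm64957 and with the pseudogene Gm7208. Neither of these 2 genes was analysed here. In the other 6 members 0.541% to 3.25% of windows were shared, and in Ces2b 9.54%.

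Levels of different genes were compared per kilobase of exon, with the exons of all annotated transcripts of a gene merged. The canonical transcript covers an unequal part of this length. Ces1d has 5135 bases of merged exon and 1955 windows of 50 bases in its canonical transcript. For Ces2g these values are 3686 and 2814, for Ces1g 2779 and 2670, and for Ces2f 4925 and 1774. The order below holds for merged exons, and the order by canonical length was not taken. Ces2c, which hydrolyses triglycerides in the intestine, stood highest at 103 ± 20.5 CPM per kb (SD, n = 20), above Ces2a in all 20 mice. Ces2a, likewise a lipid hydrolase of liver and gut, followed at 33.6 ± 5.83 CPM per kb and Ces2e at 30.4 ± 7.72 CPM per kb. Ces2a exceeded Ces2e in 13 of 20 mice, a count that pools diets with opposite orders. At 0% RPS Ces2a stood at 39.4 ± 5.07 and Ces2e at 27.3 ± 5.13 CPM per kb (SD, n = 5 each), and Ces2a was also higher at 2% RPS. Their order by diet means was reversed at 5% and 10% RPS. At 10% RPS Ces2a stood at 30 ± 6.14 and Ces2e at 38.5 ± 2.16 CPM per kb. Ces2g stood at 9.72 ± 1.05 CPM per kb and Ces1d, a triglyceride hydrolase of liver and fat, at 5.06 ± 0.98 CPM per kb.

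Ces2b and Ces1f came next, at 1.8 ± 1.11 and 1.68 ± 0.817 CPM per kb. Ces2b was the higher of these 2 in 9 of 20 mice. By diet means Ces2b stood above Ces1f at 0% and 2% RPS and below it at 5% and 10% RPS, and with the length of the longest transcript Ces1f stood above Ces2b overall. Ces1g was at 0.744 ± 0.279 CPM per kb and Ces2f lowest, at 0.279 ± 0.12 CPM per kb. Ces1d exceeded Ces2b in 19 of 20 mice and Ces1g exceeded Ces2f in 18 of 20.

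**Figure D1:**
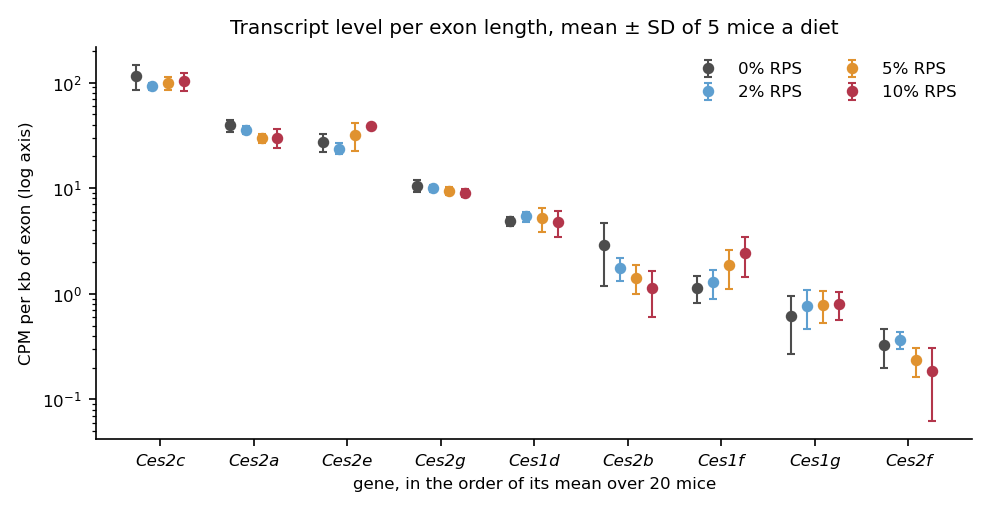
Level of each carboxylesterase gene per kilobase of exon on a log axis (CPM per kb), with 1 point per diet for the mean of 5 mice and bars for the SD. Ces2c is highest at every diet, Ces2a and Ces2e change places between 2% and 5% RPS, and so do Ces2b and Ces1f.

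Ces2b was low in the DC, with 48 to 590 counts per library. At 0% RPS the 5 mice had 4.34, 4.6, 8.9, 14.2 and 17.6 CPM, and at 2% RPS 4.61, 4.93, 5.22, 6.88 and 7.95 CPM. At 5% RPS they had 3.01, 3.72, 5.22, 5.57 and 6.73 CPM, and at 10% RPS 1.86, 2.71, 3.63, 4.53 and 6.47 CPM. The means were 9.92 ± 5.85, 5.92 ± 1.43, 4.85 ± 1.49 and 3.84 ± 1.78 CPM (SD, n = 5 each). Of the controls, 3 (mice RS10_701, RS10_707 and RS10_708) were above all 15 mice fed RPS, of which the highest had 7.95 CPM, and the other 2 overlapped the RPS groups. At 10% RPS 3 of 5 mice were below every control and all 5 were below the control median. The log2 fold change of 10% against 0% RPS, the value that chose this gene, was -1.38 ± 0.38 (SE), and it lay between -1.63 and -1.07 when each mouse was left out in turn.

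**Figure D2:**
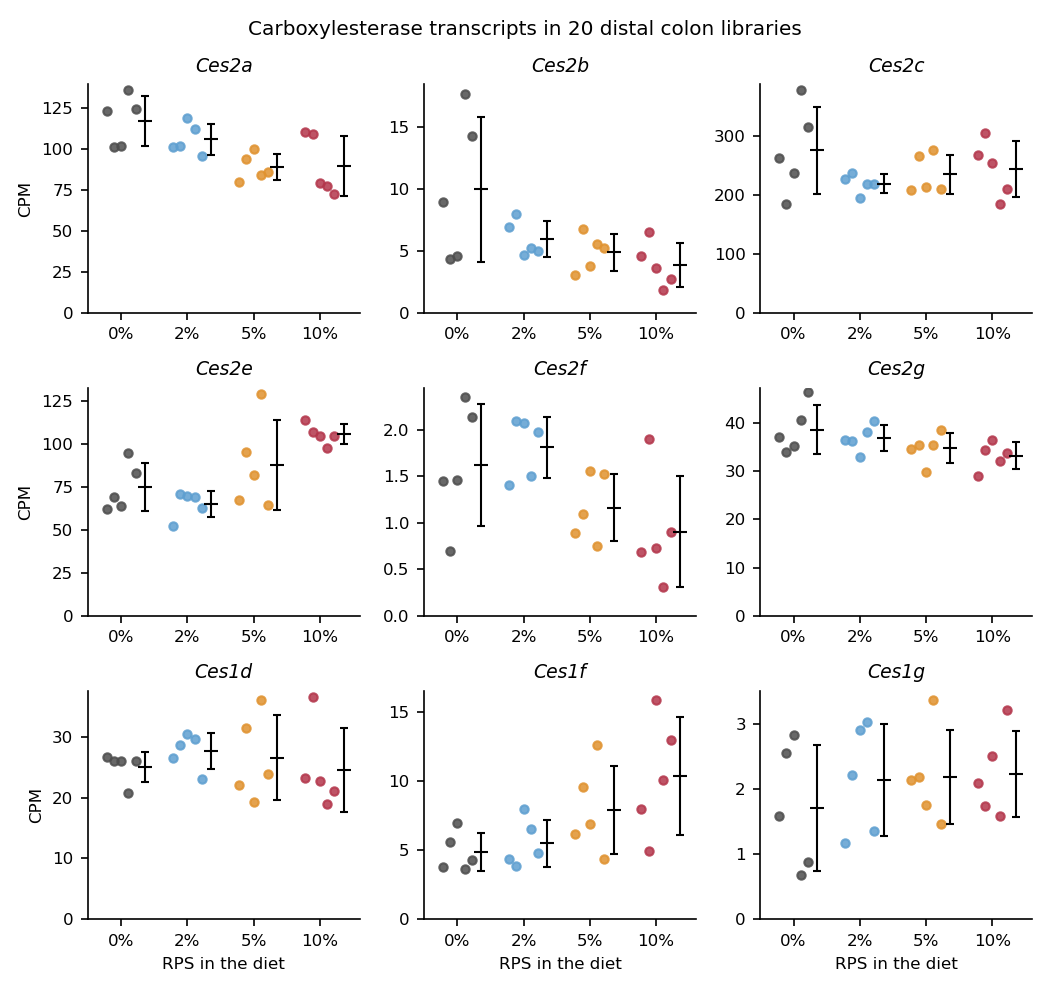
CPM of each member in each mouse (points) by RPS level, with the mean and SD of 5 mice (bars), each panel with its own axis from 0. Ces2e at 10% RPS lies between 97.6 and 114 CPM with every mouse above the controls under the description label, while the Ces2b points of 10% RPS reach up into those of the controls.

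Ces2c overlapped its control level at 10% RPS, and the difference between its change and that of Ces2b was not tested. Its 5 control mice had 185, 238, 262, 315 and 378 CPM and the 5 mice at 10% RPS 185, 210, 254, 268 and 305 CPM. At 2% RPS Ces2c ran from 195 to 238 CPM and at 5% RPS from 209 to 277 CPM. The groups overlapped throughout, and the log2 fold change of 10% against 0% RPS was -0.17 ± 0.16 (SE), between -0.28 and -0.03 when each mouse was left out. The 2 controls highest for Ces2b, mice RS10_707 and RS10_708, were also the 2 highest for Ces2c. The ratio of Ces2c to Ces2b counts had a median of 29.4 at 0%, 41.8 at 2%, 49.7 at 5% and 70.1 at 10% RPS.

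Ces2e, an esterase known from the small intestine and liver, had a higher mean at 10% RPS than in the controls. The controls had 62.2, 64.1, 69.3, 83.4 and 95.1 CPM and the mice at 10% RPS 97.6, 105, 105, 107 and 114 CPM. By the description label all 5 mice at 10% RPS were thus above all controls. The treatment label places mouse RS10_748, with 63 CPM, at 10% RPS, where 4 of 5 mice then lay above all controls and the log2 fold change was 0.35 ± 0.17 (SE). At 2% RPS Ces2e ran from 52.4 to 70.9 CPM, and at 5% RPS the mice had 64.6, 67.6, 82.3, 95.5 and 129 CPM. With the description label the log2 fold change of 10% against 0% RPS was 0.50 ± 0.15 (SE). Mouse RS10_721, which carried the pancreatic transcripts, was the highest at 5% RPS, and without mice RS10_721 and RS10_784 the 10% against 0% value was 0.5 ± 0.13.

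Ces2a had lower means at 5% and 10% RPS than in the controls. The controls had 101, 102, 123, 124 and 136 CPM, the mice at 5% RPS 80, 84.3, 85.9, 93.5 and 100 CPM, and those at 10% RPS 72.3, 77.3, 78.9, 109 and 110 CPM. By the description label every mouse at 5% RPS was below every control, whereas at 10% RPS 3 of 5 mice were. The treatment label places mouse RS10_725, with 110 CPM, at 5% RPS, and 4 of 5 mice were then below every control at 5% and at 10% RPS. The log2 fold change of 10% against 0% RPS was -0.39 ± 0.11 (SE).

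The last pair of Ces2 members differed less or were barely counted. Ces2g had means of 38.6 ± 5.05, 36.8 ± 2.69, 34.7 ± 3.11 and 33.1 ± 2.79 CPM at 0%, 2%, 5% and 10% RPS (SD, n = 5 each), with a 10% against 0% log2 fold change of -0.22 ± 0.09 (SE), which was -0.12 ± 0.09 with the groups of the treatment label. Ces2f, at 8 to 79 counts per library, had 0.696, 1.45, 1.46, 2.14 and 2.35 CPM in the controls and 0.311, 0.684, 0.725, 0.902 and 1.9 CPM at 10% RPS. The log2 fold change was -0.87 ± 0.36 (SE), and it was -0.48 ± 0.4 with the groups of the treatment label.

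Of the Ces1 genes, Ces1f differed most. It encodes a liver enzyme that hydrolyses triglycerides. Its controls had 3.63, 3.8, 4.28, 5.6 and 6.93 CPM, and the mice at 10% RPS 4.9, 7.95, 10.1, 13 and 15.9 CPM, so that 4 of 5 were above every control, or 3 of 5 by the treatment label. At 5% RPS the values were 4.38, 6.15, 6.87, 9.54 and 12.6 CPM and at 2% RPS 3.81, 4.38, 4.76, 6.51 and 7.97 CPM. The log2 fold change of 10% against 0% RPS was 1.10 ± 0.31 (SE).

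The other Ces1 members differed less between diets. Ces1d had means of 25.1 ± 2.45, 27.7 ± 2.99, 26.5 ± 7.01 and 24.5 ± 6.96 CPM at 0%, 2%, 5% and 10% RPS (SD, n = 5 each), and its log2 fold change of 10% against 0% RPS was -0.04 ± 0.17 (SE). Ces1g, which has been tied to liver lipid levels, had means of 1.71 ± 0.967, 2.14 ± 0.862, 2.19 ± 0.727 and 2.23 ± 0.656 CPM and a log2 fold change of 0.39 ± 0.36 (SE), between 0.20 and 0.65 when each mouse was left out. Summed over the 9 members, the level was 550 ± 106 CPM at 0%, 470 ± 17 CPM at 2%, 489 ± 70 CPM at 5% and 515 ± 73.3 CPM at 10% RPS, so the sums overlapped. Within that sum the share of Ces2e was 13.7 ± 1.57% at 0% and 20.8 ± 2.19% at 10% RPS, and that of Ces2a 21.6 ± 1.84% and 17.3 ± 1.86%.

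A gene was called changed at a Benjamini-Hochberg adjusted p of at most 0.05 and a fold change of at least 1.5. In edgeR the adjustment ran over the 17893 genes tested. DESeq2 was fitted to every gene with a count, and its shares of all genes are over those it gave an adjusted p. These were 25901 genes at 2% against 0% and at 5% against 2% RPS, 19863 at 5% against 0% and 17373 at 10% against 0% RPS. For 10% against 0% RPS, the contrast the choice of genes used, no call was made for the members. Groups without overlap occurred there in 1 member that was higher at 10% RPS, Ces2e, with 1.13% of all genes, and in 0 members that were lower, with 1.15%. These counts belong to the contrast that picked Ces2b, and nothing is read from them.

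The comparison of 5% with 2% RPS asked whether the members differed between 2 amounts of starch, and it shares no mice with the contrast that chose Ces2b. edgeR called 0 of 9 members and 0% of all genes. DESeq2 called 0 of 9, and 0.00386% of all genes. At an unadjusted p under 0.05 there were 2 of 9 members, Ces2e and Ces2a, against 6.53% of all genes. No member had groups without overlap in either direction, where 0.475% of all genes were lower and 0.481% higher in every mouse. Ces2e had a log2 fold change of 0.43 ± 0.15 (SE, unadjusted p = 0.0112, edgeR adjusted p = 0.705), and without mice RS10_721 and RS10_784 this was 0.25 ± 0.13 with an edgeR adjusted p of 0.982. Ces2a had a log2 fold change of -0.25 ± 0.11 (unadjusted p = 0.0365, edgeR adjusted p = 0.757), and one of -0.12 ± 0.12 with the treatment label (edgeR adjusted p = 0.995). For Ces2b the log2 fold change was -0.29 ± 0.37 with a 95% interval from -1.07 to 0.49 (edgeR adjusted p = 0.9), which leaves room for a difference of more than 1.5-fold in its lower direction. For Ces2f it was -0.64 ± 0.34 and for Ces1f 0.53 ± 0.31, with edgeR adjusted p of 0.76 and 0.77.

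For 2% against 0% and 5% against 0% RPS the 8 members other than Ces2b were tested, since the control mice also chose Ces2b. These comparisons share their controls with each other and with the 10% contrast. At 2% RPS edgeR called 0 of 8 members and 0% of all genes, and DESeq2 called 0 of 8 and 0.00386% of all genes. Ces2c was the 1 of 8 with an unadjusted p under 0.05 (log2 fold change -0.33 ± 0.16, edgeR adjusted p = 1), where 1.41% of all genes had one, and without the control mouse RS10_707 its value was -0.19 ± 0.14. Ces2c went with Ces2b across mice (r of 0.924), and mice RS10_707 and RS10_708 were the highest controls for both genes. The tests of Ces2c against these controls are therefore not free of the choice of Ces2b, and nothing is read from them. At 5% RPS edgeR again called 0 of 8 and 0% of all genes, and DESeq2 0 of 8 and 0.156% of all genes. Ces2a and Ces1f were the 2 of 8 with an unadjusted p under 0.05, where 9.19% of all genes had one. Ces2a had a log2 fold change of -0.40 ± 0.11 (unadjusted p = 0.00183, edgeR adjusted p = 0.325), and it was the 1 member lower in every mouse, as were 0.576% of all genes. With the treatment label its groups overlapped and the value was -0.31 ± 0.12 (edgeR adjusted p = 0.627). No member was higher in every mouse, as were 0.464% of all genes. Ces1f had a log2 fold change of 0.71 ± 0.31 (edgeR adjusted p = 0.499). Mice RS10_701, RS10_707 and RS10_708, the highest controls for Ces2b, were also the highest controls for Ces2a and the lowest for Ces1f. Across mice Ces2b had an r of 0.651 with Ces2a and of -0.444 with Ces1f. The tests of Ces2a and Ces1f against these controls are thus not free of the choice of Ces2b either, and nothing is read from them. Ces2b itself, given with no test, had log2 fold changes of -0.75 ± 0.37 at 2% and -1.03 ± 0.37 at 5% RPS, which ran from -0.93 to -0.44 and from -1.22 to -0.72 when each mouse was left out. The median log2 fold change over the 9 members was -0.07 at 2%, -0.15 at 5% and -0.17 at 10% RPS, and over all genes it lay between -0.0149 and -0.000977.

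**Figure D3:**
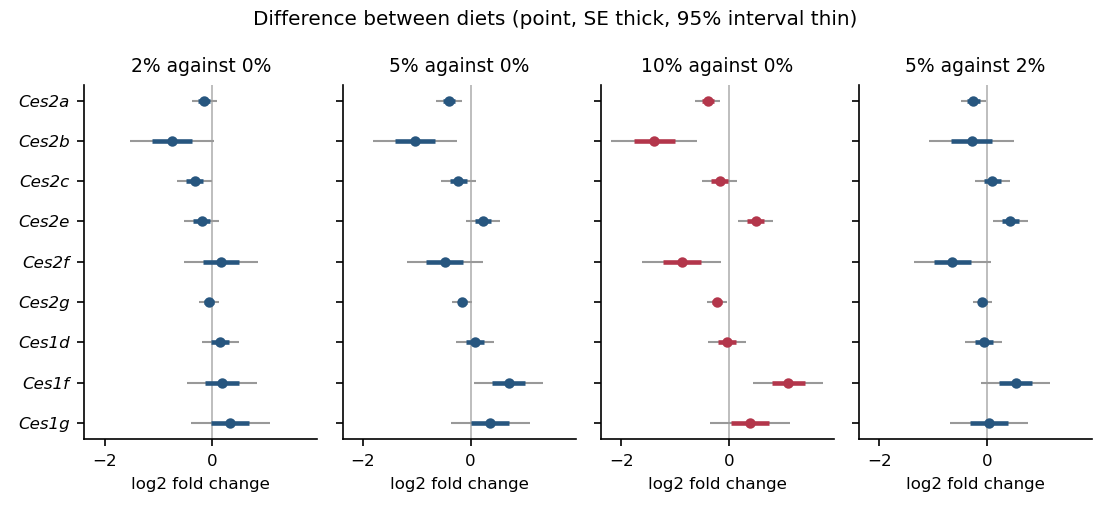
Log2 fold change of each member in 4 comparisons of diets, with the SE as thick and the 95% interval as thin bars, from the edgeR fit. At 10% against 0% RPS (no test) Ces2b stands at -1.38 and Ces1f at 1.10, and at 5% against 2% RPS Ces2e stands at 0.43.

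How the members varied together was measured over the 20 mice on log2 CPM after the mean of each diet was taken away. All correlations are descriptions without a test, and the points share their libraries and depths. Ces2b and Ces2c had a Pearson r of 0.924 and a Spearman rho of 0.94. Among the 15231 genes that averaged 1 CPM or more, Ces2c was the gene most like Ces2b, and Ces2b the gene most like Ces2c. The r stayed between 0.903 and 0.949 when each mouse was left out, was 0.895 without the 2 mice farthest from the middle for Ces2c, and was 0.833 with the diets of the treatment label. Ces2b varied more than Ces2c around the diet means, with SDs of 0.634 and 0.269 log2 units, and the slope of Ces2b on Ces2c was 2.18. As given above, the shared windows of these 2 genes could hold more Ces2c reads than the whole Ces2b count.

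**Figure D4:**
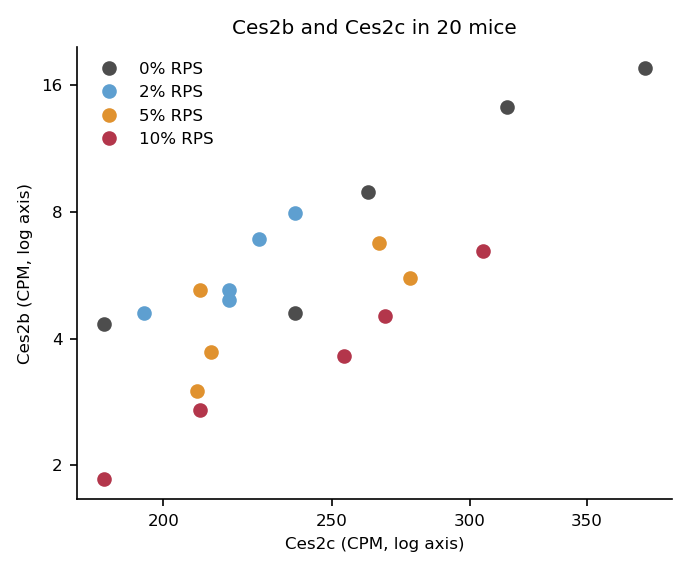
Ces2b against Ces2c in CPM for each of the 20 mice, both on log axes, coloured by RPS level. Within each diet the 2 genes go together (r of 0.924 after diet means are taken away), and at 10% RPS the points lie lower for Ces2b at similar Ces2c.

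Within Ces2, 14 of 15 pairs had an r above 0, with a median of 0.494. Ces2b went with Ces2a at 0.651 and with Ces2f at 0.649, and Ces2c with Ces2e at 0.59. Ces2a and Ces2g formed the pair below 0, at -0.113. Of the 3 Ces1 pairs, Ces1f and Ces1g had an r of 0.67 and Ces1d and Ces1f one of 0.0756. Pairs of a Ces1 and a Ces2 gene had a median r of -0.214, with 8 of 18 above 0. The lowest was Ces1g with Ces2b, at -0.537.

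**Figure D5:**
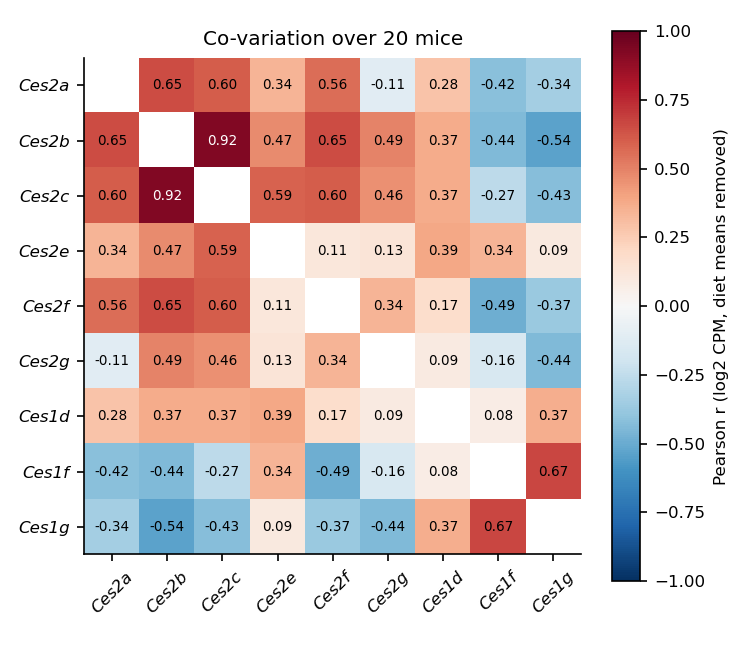
Pearson r for each pair of members over 20 mice on log2 CPM with diet means taken away. The Ces2 block is mostly red (14 of 15 pairs above 0), the darkest cell is Ces2b with Ces2c, and Ces1f and Ces1g are blue against most of Ces2.

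The genes most like each member mostly lay outside the family. Ces1d was most like Pcsk5, a proprotein convertase, at an r of 0.905, and then Etv1 (0.835) and Spock3 (0.823). Ces1f went with Mgat4c (0.914), the glutathione transferase Gstm3 (0.896) and 1810065E05Rik (0.892). Ces1g went with the quinone reductase Nqo1 (0.856), Clca4a (0.814) and Serp1 (0.813).

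For Ces2a these genes were Zfp629 (0.807), the interleukin receptor subunit Il17rb (0.774) and Angpt1 (0.767). After Ces2c, Ces2b was most like Rdm1 (0.866) and Dennd6b (0.859), and after Ces2b, Ces2c was most like Syt2 (0.886) and the transglutaminase Tgm3 (0.876). Ces2e went with Amy1 (0.843), the phosphatase Ocrl (0.814) and Igf2r (0.806), Ces2f with the calcium-binding S100g (0.829), the folate transporter Slc46a1 (0.826) and Iftap (0.825), and Ces2g with Mios (0.87), Coa8 (0.831) and Ly6g6e (0.818). Each was picked as one of the 3 highest of 15231 values over 20 mice, a choice that by itself favours large r values. Mice RS10_721 and RS10_784, with pancreatic transcripts, were kept in these values, and Ces2e was highest in mouse RS10_721, with 129 CPM.

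Promoter windows (250 bases before to 50 after the start) were taken from RefSeq for 6 members, Ces1g, Ces2a, Ces2c, Ces2e, Ces2f and Ces2g. Ces1d, Ces1f and Ces2b have no entry. The longest string that 4 of the 5 Ces2 windows have in common was sought, and it was ACTTTGCCC. Its presence in 4 members was fixed by this search, as was that of its parts, and any link with the co-variation was not tested. The string occurred in Ces2a, Ces2e, Ces2f and Ces2g, not in Ces2c, and, on either strand, in 86 of 32851 windows, or 0.262%. Its first 6 letters, ACTTTG, the complement of CAAAGT in the recognition sequence of HNF4, a regulator of gut and liver genes, were in the same 4 members and in 14.4% of all windows. The nuclear receptor half-site AGGTCA was in Ces2a and in 16.3% of all windows, and AGTTCA in 0 of the 6 and in 14% of all windows. TATAAA was in Ces1g and in 13.6% of all windows, and CCAAT was in Ces1g, Ces2a, Ces2c and Ces2g and in 37.4%. The windows of the 3 members highest per length follow, 5′ to 3′ (GRCm38.p6, plus strand), with ACTTTGCCC in capitals where it occurs.
Ces2c, chr8:104846818-104847117: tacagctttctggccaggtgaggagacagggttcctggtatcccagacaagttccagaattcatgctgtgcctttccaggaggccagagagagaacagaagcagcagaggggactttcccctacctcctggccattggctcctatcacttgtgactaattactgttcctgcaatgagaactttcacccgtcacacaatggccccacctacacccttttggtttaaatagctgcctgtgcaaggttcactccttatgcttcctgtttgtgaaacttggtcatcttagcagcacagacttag
Ces2a, chr8:104733753-104734052: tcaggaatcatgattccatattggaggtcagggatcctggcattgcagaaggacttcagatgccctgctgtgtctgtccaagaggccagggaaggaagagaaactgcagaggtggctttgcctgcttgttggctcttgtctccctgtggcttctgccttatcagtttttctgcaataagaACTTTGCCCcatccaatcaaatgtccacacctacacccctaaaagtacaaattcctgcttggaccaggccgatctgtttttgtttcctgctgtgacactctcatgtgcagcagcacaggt
Ces2e, chr8:104926010-104926309: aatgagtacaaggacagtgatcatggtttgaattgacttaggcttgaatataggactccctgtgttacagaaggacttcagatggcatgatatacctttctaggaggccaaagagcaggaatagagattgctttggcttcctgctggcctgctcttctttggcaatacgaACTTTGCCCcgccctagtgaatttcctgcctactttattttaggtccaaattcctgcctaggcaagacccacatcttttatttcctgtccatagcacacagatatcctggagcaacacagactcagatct

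Other genes of the pathways were taken from lists and counted at 10% against 0% RPS, by edgeR with Benjamini-Hochberg adjustment over all genes. Of all genes, 0.0391% were called there by edgeR and 1.21% by DESeq2, and 15.2% had an unadjusted p under 0.05. Of the 4 tested genes of the rest of the family, 0 were called by edgeR or DESeq2 and 1 had an unadjusted p under 0.05. That was Ces1e, at 9.8 ± 1.13 CPM in the controls and 7.29 ± 0.848 CPM in the mice at 10% RPS. Its log2 fold change was -0.43 ± 0.13 (edgeR adjusted p = 0.118), and DESeq2 gave an adjusted p of 0.0399 with a fold below the threshold. By the description label its mice at 10% RPS (6.43 to 8.22 CPM) were all below the controls (8.7 to 11.6 CPM), as were 1.15% of all genes. Mouse RS10_748, at 10% RPS by the treatment label, had 9.95 CPM. The medians over the 4 genes and over all genes were -0.25 and -0.01. Of 27 other hydrolases of esters and glycerolipids, 0 were called by edgeR, 1 was called lower by DESeq2, and 7 had an unadjusted p under 0.05, with a list median of 0.03. The gene DESeq2 called was Lipk, a lipase family gene, with an edgeR log2 fold change of -1.33 ± 0.37 (edgeR adjusted p = 0.103). Nceh1, which hydrolyses cholesteryl esters, had a log2 fold change of -0.57 ± 0.18 (edgeR adjusted p = 0.133), and the endothelial lipase Lipg one of 0.86 ± 0.29 (0.173). Aadac, an esterase of the endoplasmic reticulum, had one of -0.16 ± 0.28 (0.833). Cel, the pancreatic carboxyl ester lipase, had a mean of 95.4 ± 213 CPM at 5% RPS that came from mouse RS10_721 with 476 CPM.

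Of 23 tested genes of triglyceride synthesis and lipoprotein assembly, 0 were called by either tool. An unadjusted p under 0.05 was found for 2 of them, against 15.2% of all genes, and the list median was -0.04. The 3 with the largest differences were Fabp2 (0.74 ± 0.39), Apoa1 (-0.66 ± 1.36) and Scd1 (0.51 ± 0.41), and their edgeR adjusted p ran from 0.373 to 0.866. Of 26 tested xenobiotic receptors and drug-metabolism genes, 1 rose by edgeR and 6 had an unadjusted p under 0.05, with a list median of -0.03. It was Abcg2, an efflux pump of the apical membrane, at 56.6 ± 5.07 CPM at 0% and 93 ± 8.89 CPM at 10% RPS (log2 fold change 0.72 ± 0.11, edgeR adjusted p = 0.00929). Every mouse at 10% RPS was above every control for this gene, as for 1.13% of all genes. DESeq2 also called Abcg2 and called the sulfotransferase Sult1c2 lower, with an edgeR log2 fold change of -0.72 ± 0.16 (edgeR adjusted p = 0.0659). Cyp2c65 had a log2 fold change of -0.56 ± 0.25 (0.295). Nr1i2 (PXR) and Nr1i3 (CAR), receptors that regulate many esterase and cytochrome genes, had log2 fold changes of -0.15 ± 0.08 and 0.13 ± 0.27 (edgeR adjusted p = 0.36 and 0.863).

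Of 18 tested transcription factors of gut and lipid metabolism, 0 were called by edgeR and 1 rose by DESeq2, where DESeq2 called 1.21% of all genes. An unadjusted p under 0.05 was found for 6 of them, against 15.2% of all genes, and the list median was 0.13. The gene DESeq2 called was Cdx2, the intestinal homeobox factor, at 11.5 ± 7.13 CPM at 0% and 31.3 ± 7.98 CPM at 10% RPS (log2 fold change 1.44 ± 0.44, edgeR adjusted p = 0.139). Hnf4a had a log2 fold change of 0.16 ± 0.11 (0.509), Ppara one of -0.43 ± 0.18 (0.252) and Creb3l3 one of 0.45 ± 0.39 (0.624). At 5% against 2% RPS edgeR and DESeq2 called 0 genes of these 5 lists. An unadjusted p under 0.05 was seen, in the order above, for 0 of 4, 2 of 27, 0 of 23, 3 of 26 and 4 of 18 genes, against 6.53% of all genes. At 2% against 0% RPS both tools called 0, and 1 gene of the drug-metabolism list had such a p, as had 1.41% of all genes. At 5% against 0% RPS edgeR called 0 and DESeq2 called 1, the cytochrome Cyp2c55 (edgeR log2 fold change -1.23 ± 0.28, edgeR adjusted p = 0.325), where DESeq2 called 0.156% of all genes. An unadjusted p under 0.05 was then found for 0 of 4, 3 of 27, 2 of 23, 6 of 26 and 6 of 18 genes, and for 9.19% of all genes.

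Markers of other cell types were summed beside these values. The 12 colonocyte markers summed to 17500 ± 2250 CPM at 0% and 20900 ± 1740 CPM at 10% RPS, and the 8 goblet cell markers to 9940 ± 1670 and 12500 ± 3140 CPM. At 10% against 0% RPS edgeR called 1 colonocyte and 0 goblet markers, and DESeq2 called 3 and 1, all higher. Over all genes edgeR called 0.0391% and DESeq2 1.21%. Across mice, with diet means taken away, the goblet sum had an r of -0.75 with Ces2b, -0.773 with Ces2f and -0.663 with Ces2c, and of 0.729 with Ces1f (n = 20). Farthest from 0 for the colonocyte sum were -0.569 with Ces2a, 0.527 with Ces1g, 0.493 with Ces1f and -0.476 with Ces2b. For the 9 pancreatic markers they were 0.527 with Ces2e and 0.486 with Ces1f, with mice RS10_721 and RS10_784 kept. The part of these lists in the differences between diets was not tested. The 10 adipocyte markers, all detected, summed to 112 to 179 CPM in the controls, 103 to 242 CPM at 2%, 78.1 to 420 CPM at 5% and 122 to 288 CPM at 10% RPS, with Adipoq between 0.134 and 22.7 CPM. Their r was 0.642 with Ces2e, 0.503 with Ces1f and 0.459 with Ces1d, genes of which the last is known from fat, and their part in the results was not tested. The 8 smooth muscle markers had an r of -0.689 with Ces2e.

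The 8 lymphocyte markers summed to 76.5 to 694 CPM in the controls and 358 to 779 CPM at 10% RPS, with means of 255 ± 250 and 506 ± 171 CPM, and their sum had an r of -0.694 with Ces2g. The 8 squamous markers summed to 2.95 to 12.5 CPM per mouse, with 4 of 8 reaching 1 CPM in a mouse and Krt5 at most 0.715 CPM, and had an r of -0.508 with Ces2b and -0.489 with Ces2f. The part of either list in the results was not tested. The 8 liver markers summed to 52.3 to 229 CPM per mouse, with Alb between 0.875 and 99.2 CPM, and their r farthest from 0 was 0.345, with Ces1d. The 8 macrophage markers averaged 356 ± 81, 295 ± 30.6, 264 ± 29.3 and 297 ± 37.2 CPM at 0%, 2%, 5% and 10% RPS. Their r farthest from 0 was 0.374, with Ces2a. At 5% against 0% RPS all 8 had an unadjusted p under 0.05 by edgeR, where 9.19% of all genes had one. DESeq2 called 2 of them lower there, and 0.156% of all genes. The part of these markers in the results was not tested. The clock gene Dbp ran from 3.76 to 114 CPM over the mice, with means of 55.8 CPM at 0% and 28.3 CPM at 10% RPS. Its r values farthest from 0 were 0.533 with Ces2g, -0.51 with Ces1g and -0.477 with Ces1d, and its part in the results was not tested.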

How the data were processed

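RNA from 20 distal colon sections was sequenced from stranded mRNA libraries as single reads of 50 bases. Before deposit the authors trimmed low-quality bases, mapped the reads to GRCm39 in the CLC Genomics Workbench and summed them into the deposited counts per Ensembl gene. Which annotation release was used, and what was done with reads matching several genes, is not given in the sources used here. Of 26619 identifiers 26338 matched GENCODE vM39, from which symbols, positions and lengths were taken.

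Groups followed the description label, and the authors' DESeq2 rule (adjusted p of at most 0.05, fold of at least 1.5) was applied. Genes kept by the minimum count filter of 10 (17893) were fitted over all 4 diets in edgeR 4.0.16 (R 4.3.3, TMM scaling, robust quasi-likelihood test), with DESeq2 1.42.0 as the alternative. CPM are TMM-scaled, with a prior count of 2 for log2 CPM. Total counts of 18.4 to 35 megacounts limit the precision of Ces1g and Ces2f most. Errors over mice include biological spread, since each library is 1 mouse. The code was tested on simulated counts. Sequences were compared with Biopython 1.88.

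The members and the lists were chosen with earlier results of these data known. The genes named were all members, of each pathway list every called gene and the 3 with the largest difference at 10% against 0% RPS with a mean of at least 1 CPM, Nr1i2, Nr1i3, Hnf4a and Aadac, and the 3 genes most like each member. The genes of the pathway lists that DESeq2 alone called were named as well. Called genes of the marker lists were not named, and those lists were given mainly by their sums. Dbp was given as a single gene beside them. Alternatives were DESeq2, other scaling, no filter, the treatment label, the disagreeing mice left out, a fit of the compared diets, no robust estimate, and each mouse left out.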

Additional observations from a re-analysis of the deposited data

Results flagged for a closer look

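Among 36 groups of 5 mice (9 members in 4 diets), 2 held a mouse far from the rest by Dixon's criterion, where chance gives 1.8. Both concerned Ces1d. In the 0% RPS group mouse RS10_707 had 20.7 CPM, with the nearest of the other mice at 26 CPM. In the 10% RPS group mouse RS10_727 had 36.6 CPM, with the nearest at 23.2 CPM. Mouse RS10_707 was also the control with the highest Ces2b level.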

How the results depend on the processing

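At 2% and 5% against 0% RPS and at 5% against 2% RPS the count of members called was 0 under every alternative, DESeq2 and each mouse left out included. At 10% against 0% RPS, where no member was tested, the median log2 fold change over the 9 members was -0.17, and -0.26 to -0.09 when each mouse was left out (-0.09 without mouse RS10_707 or RS10_731). The median r over the 36 pairs was 0.312, and 0.202 to 0.344 when each mouse was left out.

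The direction of 6 small log2 fold changes was reversed under some alternative. Ces2f at 2% against 0% was -0.03 with the treatment label, and -0.03 to 0.33 when each mouse was left out. Over such fits Ces2g at 2% against 0% ran -0.11 to 0.01, Ces1d at 5% against 0% -0.06 to 0.17, Ces1d at 5% against 2% -0.2 to 0.03 and Ces1g at 5% against 2% -0.18 to 0.2. Ces1d at 10% against 0%, -0.04 in the report, ran -0.21 to 0.04. Without the 2 mice with pancreatic transcripts Ces1d was -0.05 at 5% and 0.01 at 10% against 0%, an alternative chosen after seeing the data. Ces1g at 5% against 2% was -0.08 with the treatment label, -0.08 without the 3 disagreeing mice and -0.17 without the 2 mice with pancreatic transcripts. No paired analysis was possible because the groups share no replicate numbers. The depth limits Ces2f and Ces1g, with 8 and 23 counts in their lowest libraries.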
